A study of Mus musculus with 2 samples.

Results

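Complex I, the NADH:ubiquinone oxidoreductase, is the entry point of the mitochondrial respiratory chain. It takes electrons from NADH, passes them over a flavin and a chain of iron-sulphur clusters to ubiquinone, and pumps protons across the inner membrane. The matrix arm carries the electron path and the membrane arm the proton channels. Core subunits, shared with bacteria, do the catalysis, accessory subunits surround and stabilise them, and assembly factors help to build the enzyme without being part of it. Most of these genes in the nucleus have symbols that begin with Nduf, while other core subunits are encoded by mitochondrial DNA.

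The genes were chosen by name. A probe set had to name 1 gene alone with a symbol beginning with Nduf, and a gene with several such probe sets was read at the one with the highest mean of both arrays. This gave 43 genes among 19938 genes with a probe set of their own. They comprise 6 core subunits, 28 accessory subunits and 7 assembly factors, which are the 41 complex I genes described below, and also Ndufa4 and Ndufa4l2, whose products are not counted as complex I subunits. Ndufb1, Ndufb4 and Ndufaf8 had no probe set naming them alone.

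The cells were mouse embryonic fibroblasts (MEFs), matrix-producing cells cultured from embryos. In both groups they carried an adenovirus expressing LacZ, a bacterial enzyme gene used as control cargo, and received the solvent DMSO or 250 nM celastrol, a plant triterpenoid, for 7 h in DMEM with 1% serum. Each condition was measured on 1 Affymetrix array of total RNA, so no difference below has a replicate check and no p-value or error can be given. A difference due to the treatment cannot be told apart from one between the 2 cultures or arrays. In RNA from a whole culture, fewer cells of a type and less RNA per cell cannot be told apart either. Mouse strain and number of embryos were not given in the sources used here.

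Values are log2 RMA levels, so a difference of -1 is a halving of the signal. The detection limit was 5.72. Of 1212 probe sets for receptors of smell and pheromones, which fibroblasts should lack, 95% of the values over both arrays lay at or below it. On 1 or both arrays 13904 genes passed it. All 8 fibroblast markers were detected, but their median difference was -0.29, close to that of the complex I genes below. Of the 8, 4 were lower by at least 1.2-fold with celastrol (S100a4 -0.88, Col1a1 -0.46, Col1a2 -0.42 and Pdgfrb -0.41) and Pdgfra was higher (0.27). Thy1 (-0.16), Fn1 (0.048) and Vim (0.095) differed less. Of 20 markers of 5 other cell types, 12 were detected, with levels over all 20 from 4.69 to 8.34 with DMSO and from 4.64 to 9.21 with celastrol. Of the detected ones, 5 were higher by at least 1.2-fold with celastrol and 0 lower. Cd68, a macrophage marker, stood at 6.86 and 8.33 (2.76-fold higher) and Tnnt2, a muscle marker, at 8.34 and 9.21 (1.83-fold higher), differences larger than any of complex I. Fabp4 (0.41), Myod1 (0.34) and Des (0.32) were the others. In the macrophage and leukocyte list Csf1r was detected too, and Ptprc and Adgre1 lay under the limit on both arrays. In the epithelial list Krt8, Krt18 and Cdh1 were detected and Epcam was not. The part of these marker differences, fibroblast markers included, in the differences below was not tested.

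Transcripts of complex I were lower with celastrol almost throughout, by small amounts. Of the 41 complex I genes, 39 were lower with celastrol, against 51.9% of all detected genes. The median difference was -0.30, which is 1.23-fold lower, while the median over all detected genes was -0.014. By at least 1.2-fold (0.26 on the log2 scale), 24 of the 41 were lower, against 20.5% of detected genes, and 0 were higher, against 18.9%. Only Ndufa3, Ndufaf3 and Ndufb7 were lower by at least 1.5-fold, 3 of 41 against 4.68% of detected genes, a small count beside that background. None of the 41 was lower by at least 2-fold, against 0.662% of detected genes. Ndufaf7, at -0.263, lay just inside the 1.2-fold limit and Ndufs4, at -0.260, just outside it. As a measure of scatter at low signal, 95% of receptor probe sets lay between -0.42 and 0.41. Most complex I genes lie within that band one by one, although nearly all share a sign. Neither the scatter of dim probe sets nor that between probe sets contains the variation between cultures.

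**Figure D1:**
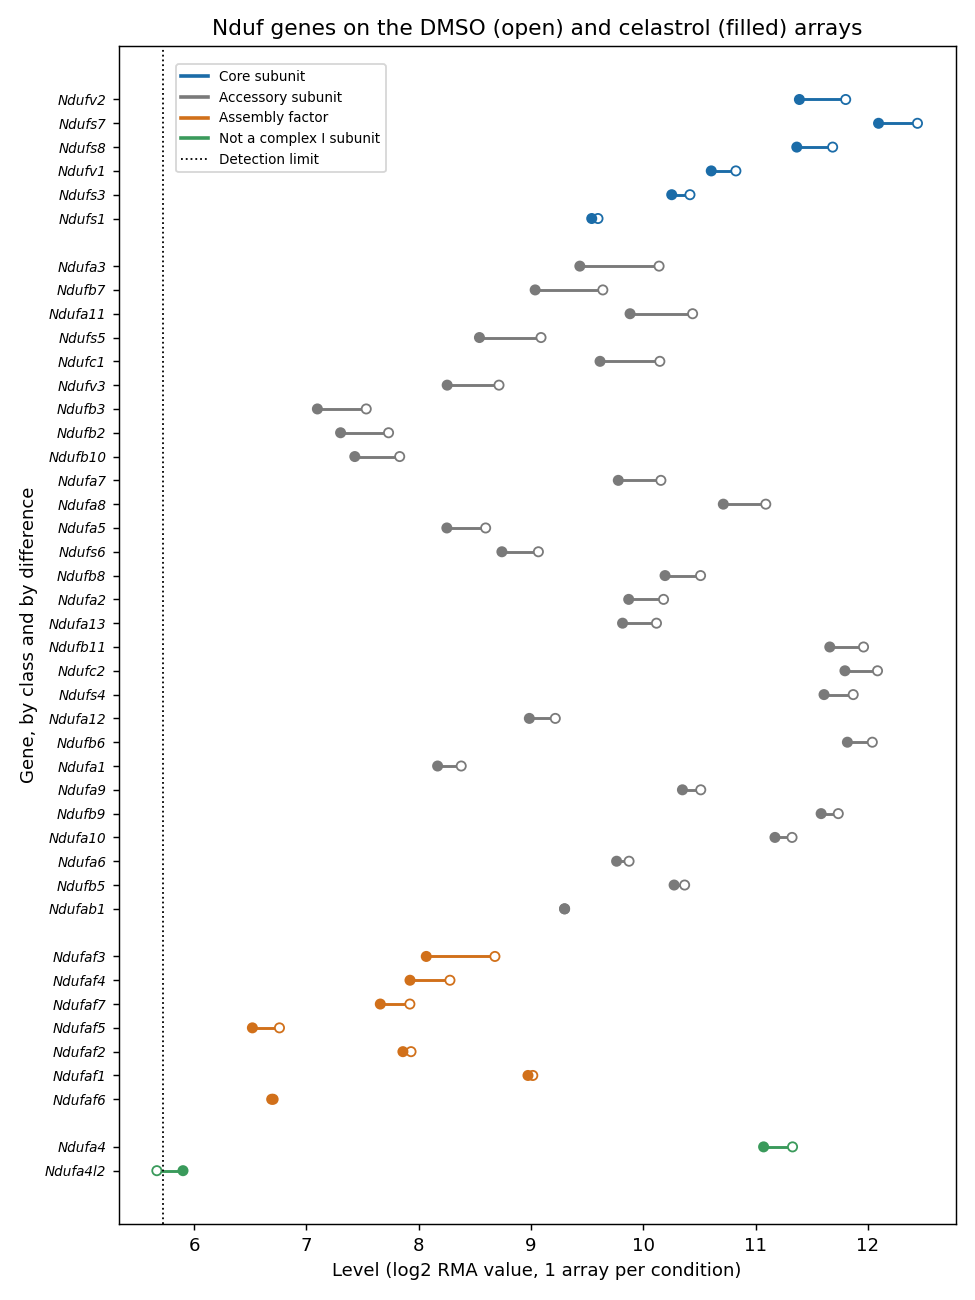
Levels (log2 RMA values) of the 43 Nduf genes on the DMSO array (open circles) and the celastrol array (filled circles), by class and, within a class, with the most negative difference at the top, with the detection limit of 5.72 as a dotted line. Blue marks core, grey accessory and orange assembly genes and green the 2 other genes. The filled circle lies to the left of the open one for all 6 core subunits, for 27 of 28 accessory subunits and for 6 of 7 assembly factors, and Ndufa4l2 alone straddles the limit.

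**Figure D2:**
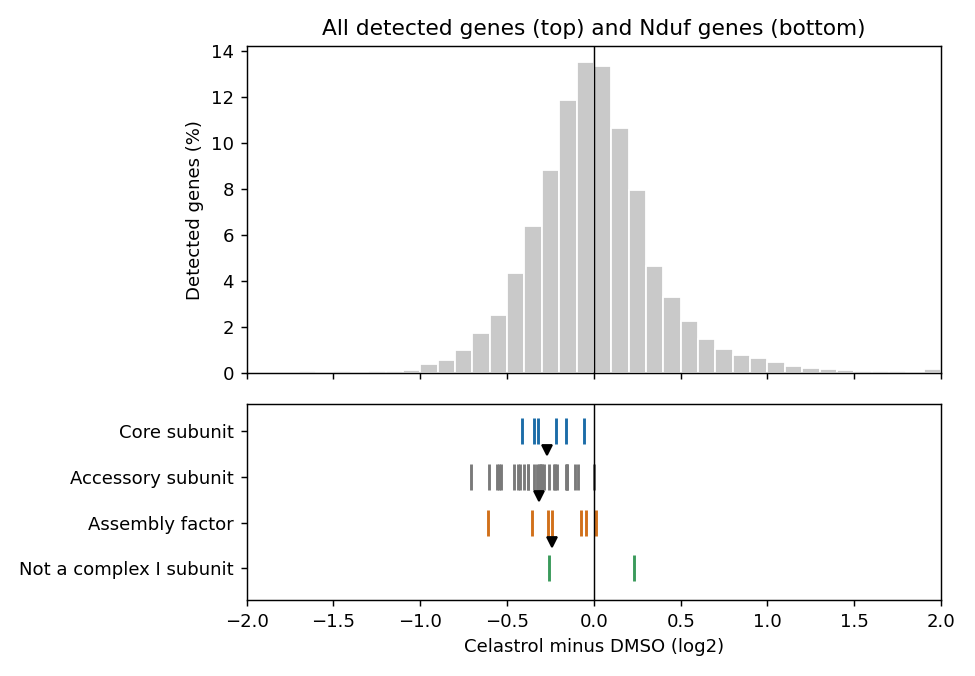
Differences (celastrol minus DMSO, log2), with the share of the 13904 detected genes in steps of 0.1 above (differences beyond 2 are collected in the outermost bars) and 1 tick per Nduf gene below, where triangles mark the medians of core (-0.27), accessory (-0.31) and assembly genes (-0.24). The ticks of the 3 classes overlap and lie mostly to the left of 0, inside the main body of the distribution.

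All 6 measured core subunits were lower with celastrol, with a median difference of -0.27 and a range from -0.41 to -0.056. Each sits in the matrix arm. Ndufv2, which holds an iron-sulphur cluster beside the NADH site, was 1.33-fold lower, with 11.80 on the DMSO array and 11.39 on the celastrol array. Ndufs7, the carrier of the last cluster before ubiquinone, stood at 12.44 and 12.10, and Ndufs8, which holds clusters on the way there, at 11.69 and 11.37. These 3 passed the 1.2-fold limit. The other core genes differed less. Ndufv1, the flavin-bearing subunit that oxidises NADH, stood at 10.82 and 10.61. Ndufs3, a structural core subunit of the quinone-reducing module, stood at 10.42 and 10.25, and a second probe set of it gave -0.18 against -0.16. Ndufs1, the largest iron-sulphur subunit, was close to equal on both arrays at 9.60 and 9.54.

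Accessory subunits had the widest range, from -0.71 to 0.00081, with 27 of 28 lower and a median of -0.31. Past the 1.2-fold limit were 18 of them. The lowest difference of all belonged to Ndufa3, a small subunit of the membrane arm (DMSO 10.14, celastrol 9.44, 1.63-fold lower). Ndufb7, a cysteine-rich protein on the intermembrane face, stood at 9.64 and 9.04, 1.52-fold lower. Ndufa11, a membrane subunit near the contact with complex III, stood at 10.44 and 9.88, 1.47-fold lower, and its second probe set also gave a negative difference (-0.47). Ndufs5, another cysteine-rich subunit of the intermembrane face, stood at 9.09 and 8.54. Ndufc1, a small membrane subunit, stood at 10.15 and 9.61 on the probe set used (-0.53), but its second probe set gave only -0.31, the widest disagreement among the 5 members with several probe sets. Ndufv3, a small subunit at the tip of the matrix arm, stood at 8.72 and 8.25. Of these 6, chosen by their values, 5 encode parts of the membrane arm, to which 18 of all 28 accessory genes belong.

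Accessory genes in the middle of the range lay close together. Among distal membrane arm subunits, Ndufb3 stood at 7.53 with DMSO and 7.10 with celastrol. Ndufb2 stood at 7.73 and 7.30, and Ndufb10 at 7.83 and 7.43. These 3 had nearly the same difference, between -0.44 and -0.40. Ndufb8 stood at 10.51 and 10.19. The X-linked Ndufb11 stood at 11.96 and 11.66, with -0.32 from its second probe set. Both of its probe sets therefore gave a similar value. Of the proximal membrane arm, Ndufa8, a cysteine-rich subunit of the intermembrane face, stood at 11.09 and 10.71. Ndufa13, also known as the cell death regulator GRIM-19, stood at 10.12 and 9.82, and Ndufc2 at 12.09 and 11.80. All of these passed 1.2-fold.

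Beside Ndufv3, 4 accessory genes of the matrix arm passed 1.2-fold. Ndufa7 stood at 10.16 with DMSO and 9.78 with celastrol. Ndufa5 stood at 8.60 and 8.25. Ndufs6, a zinc-binding subunit, stood at 9.07 and 8.74. Ndufa2, which has a thioredoxin-like fold, stood at 10.18 and 9.87.

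At the other end, 6 accessory genes lay nearest to 0. Ndufab1, the mitochondrial acyl carrier protein, which also serves fatty acid and lipoate synthesis, had the same level on both arrays (9.30), and its second probe set gave -0.048. Ndufb5, of the distal membrane arm, stood at 10.37 and 10.27. Ndufa6, a matrix arm subunit of the LYR family that binds the acyl carrier protein, stood at 9.87 and 9.76. Ndufa10, a membrane arm subunit related to nucleoside kinases, stood at 11.33 and 11.17. Ndufb9, the LYR protein of the membrane arm, stood at 11.74 and 11.58. Ndufa9, a nucleotide-binding subunit next to the quinone site, stood at 10.51 and 10.35. These 6 were chosen by their values and do not stand apart from the genes next in order. Between these and the 1.2-fold limit lay Ndufs4 (11.87 and 11.61), whose loss in mice gives a Leigh-like disease, Ndufa12 (9.22 and 8.99), Ndufb6 (12.04 and 11.82) and the X-linked Ndufa1 (8.38 and 8.17).

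By place in the enzyme, all 15 measured matrix arm subunits were lower (median -0.31), 8 of them past 1.2-fold. All 9 of the proximal membrane arm were lower (median -0.38), 7 of them past 1.2-fold. All 9 measured subunits of the distal membrane arm were lower (median -0.32), 6 of them past 1.2-fold. Ndufab1, which sits in both arms, was left out of this split. The membrane arm as a whole had a median 0.037 below that of the matrix arm, and the core median was 0.044 above the accessory one. The ranges of the classes overlap, and with 1 array per condition these gaps could not be tested. After subtraction of the median of detected genes of like span and level, the arm gap was -0.093 and the gap of core to accessory genes 0.077.

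Of the 7 assembly factors of the Nduf series, 6 were lower and 3 of these passed 1.2-fold (median -0.24). Ndufaf3, which with Ndufaf4 accompanies the early quinone module, was 1.53-fold lower, with 8.68 on the DMSO array and 8.07 on the celastrol array. Ndufaf4, its partner, stood at 8.28 and 7.92, so both of that pair lay among the lower members. Ndufaf7, a methyltransferase, stood at 7.92 and 7.66. Ndufaf5, an enzyme that in human cells hydroxylates NDUFS7, stood at 6.76 and 6.52. The other 3 were close to equal on both arrays. Ndufaf2, a relative of Ndufa12 that acts late in assembly, stood at 7.93 and 7.86. Ndufaf1, a member of the assembly complex of the proton-pumping module, stood at 9.02 and 8.97, and Ndufaf6, an early factor, at 6.69 and 6.70. The assembly factors ranged from -0.61 to 0.013, overlapping both subunit classes.

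Assembly factors whose symbols do not begin with Nduf were split evenly. Of 10 listed, 9 were measured and 8 detected, with a median of -0.014. Of the 8, 4 were lower (50%, against 51.9% of all detected genes) and 4 higher. Acad9, a dehydrogenase relative that works with Ndufaf1, stood at 9.06 on the DMSO array and 8.57 on the celastrol array (-0.49). Dmac1, a distal membrane arm factor, stood at 9.74 and 9.28. These 2 were the ones past 1.2-fold, 25% of the 8, near the 20.5% of all detected genes that were lower by that much. Ecsit and Tmem126b, which act in the same assembly complex as Acad9 and Ndufaf1, gave -0.26 and -0.065. Timmdc1, a membrane factor, was highest at 9.91 and 10.12. Differences between these factors and the Nduf series were not tested.

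Ndufa4, now counted with cytochrome c oxidase, stood at 11.33 with DMSO and 11.07 with celastrol, near the complex I genes. Its paralogue Ndufa4l2, a hypoxia-inducible gene, stood at 5.67 and 5.90 and passed the detection limit through the celastrol array alone, so its difference of 0.23 carries no call. Of the 7 mitochondrially encoded subunits, ND3 had probe sets naming it alone, 2 of them, at 12.56 and 12.32 and at 11.78 and 11.53. Its differences of -0.24 and -0.25 fell in the range of the nuclear genes.

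Several values rest on probe sets that may read near copies. The mouse gene table lists Ndufa11b, Ndufa12-ps, Ndufab1-ps, Ndufs5-ps and Ndufs6b, pseudogenes with names derived from 5 of the members. The levels of Ndufa11, Ndufa12, Ndufab1, Ndufs5 and Ndufs6 are uncertain to that extent. Copies were sought by name alone and no probe sequence was compared. Copies of other members, such as Ndufb11 or Ndufc1 with its 2 unlike probe sets, may thus have been missed. For Ndufa11, Ndufb11 and Ndufc1 the brighter probe set was used, and whether it reads the gene's own locus was not checked. For Ndufb4, both available probe sets also name Ndufb4b. They stood at 12.14 and 12.18 with DMSO and 11.51 and 11.58 with celastrol, differences of -0.63 and -0.60, which entered none of the counts. A probe set shared by Ndufs5 and Ndufs5-ps gave -0.51, near the -0.55 of Ndufs5 alone.

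The difference went along with the genomic span of the gene. In the GRCm38.p6 annotation, 10 complex I genes span under 5 kb, and their median difference was -0.36. The 22 genes of 5 to 20 kb had a median of -0.32, and the 9 genes over 20 kb one of -0.16. At least 1.2-fold lower were 8 of 10 (80%), 15 of 22 (68.2%) and 1 of 9 (11.1%) of them, the last being Ndufv2. Among all detected genes of the same spans the shares were 20.8%, 21.5% and 19.8%, and among those with a mean level above 8 they were 36.6%, 27.4% and 21.8%. The count for complex I genes over 20 kb was thus not above the background. Over all 41 genes Spearman's rho between span and difference was 0.46, a description of genes measured on the same 2 arrays. Detected genes in general showed a weaker trend of the same kind where signal was high. Above a mean level of 8, the median was -0.16 for 786 genes under 5 kb, -0.068 for 2421 genes of 5 to 20 kb and -0.0066 for 4372 longer ones. In each class of span the median of the complex I genes, which were not limited by level, lay lower than these. With no limit on level, the medians of all detected genes were -0.036, -0.025 and -0.0021, also above those of complex I. With the median of detected genes of like span and level subtracted, the complex I median was -0.24 and 18 of 41 genes were lower by at least 1.2-fold. The part of span in the difference was not tested further.

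**Figure D3:**
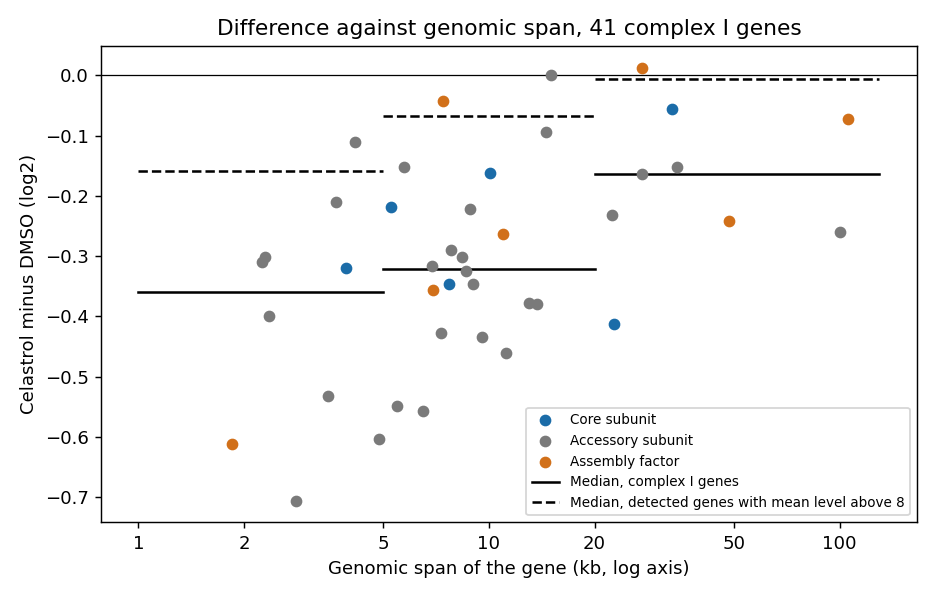
Difference (celastrol minus DMSO, log2) against genomic span (kb, log axis) of the 41 complex I genes, coloured by class, with the medians of complex I genes (solid lines) and of all detected genes with a mean level above 8 (dashed lines) in 3 classes of span. The solid lines, which include complex I genes of any level, lie at -0.36, -0.32 and -0.16. They lie below the dashed lines at -0.16, -0.068 and -0.0066.

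The other respiratory complexes gave a similar picture. Of 37 measured genes of complexes II to V, 36 were lower, against 51.9% of all detected genes. By at least 1.2-fold, 21 of the 37 were lower, against 20.5%. Their median was -0.29, beside -0.31 for the 34 subunits of complex I. The 4 genes of complex II, succinate dehydrogenase, had a median of -0.41, the 9 of complex III one of -0.29, the 9 of complex IV one of -0.21 and the 15 of the ATP synthase one of -0.28. The lowest was Uqcrh, the hinge subunit of complex III, with 11.27 on the DMSO array and 10.42 on the celastrol array (1.81-fold lower), a larger difference than any in complex I. Cox5a of complex IV, at 10.86 on both arrays, was the one gene not lower. The lower levels were thus shared by genes of all 5 complexes on these arrays.

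Regulators known to drive respiratory genes were mixed. Of 11 listed, 8 were higher, against 6684 of the 13904 detected genes, and 5 of these passed 1.2-fold, against 18.9% of detected genes. The other 3 were lower, and the median was 0.15. This list was not tested. Ppargc1a, the coactivator PGC-1alpha, was 2.75-fold higher, with 8.27 on the DMSO array and 9.73 on the celastrol array. Gabpa and Gabpb1, the subunits of the ETS factor GABP (also called NRF-2, distinct from the antioxidant factor NRF2), were 1.43-fold and 1.53-fold higher. Tfam, the packaging and transcription factor of mitochondrial DNA, was 1.41-fold higher, and Tfb2m 1.36-fold. Nrf1, nuclear respiratory factor 1, stood at 8.71 and 8.86, and Esrra, the orphan receptor ERR-alpha, at 7.65 and 7.68. Lower values were seen for Pprc1, a PGC-1 relative (-0.39), Tfb1m (-0.32) and Yy1 (-0.19). Levels of the regulators and of complex I genes were read at 1 time point, and no order of events can be taken from them.

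**Figure D4:**
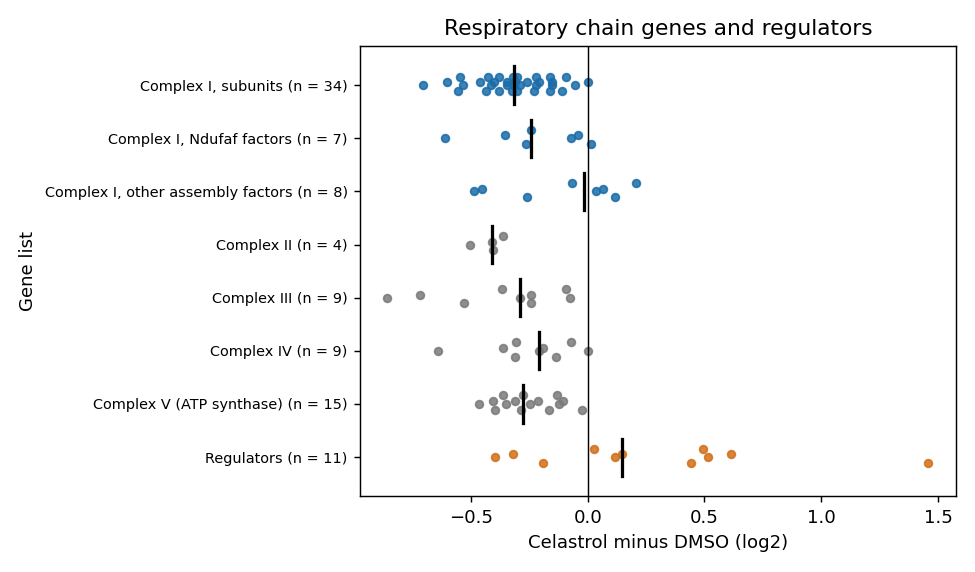
Difference (celastrol minus DMSO, log2) of each detected gene of the respiratory complexes and of the regulator list, 1 point per gene with the list median as a bar and points spread vertically for legibility. The medians of complexes I to V lie between -0.41 and -0.21, that of the other complex I assembly factors at -0.014 and that of the regulators at 0.15, with Ppargc1a farthest to the right at 1.46.

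Because the members differed in the same direction, their promoters were searched for the recognition letters of factors known to act on respiratory genes. RefSeq promoter sequences (GRCm38.p6) were at hand for 38 of the 43 members and for 27025 genes in all. Each ran from 250 bases before to 50 after an annotated start. For some members, such as Ndufs7 and Ndufaf5, that start lies inside the annotated span of the gene. For 2 members there were 2 sequences, and a match in either was counted. Letters were searched on both strands. The YY1 core AGATGGC was present for 8 of 38 members (21.1%), against 7.31% of all genes and 8.07% of detected ones. The NRF1 core GCATGCG was present for 5 (13.2%), against 4.01% and 6.74%. The CREB/ATF core TGACGTC was present for 4 (10.5%), against 3.6% and 5.75%, and the antioxidant element core TGACNNNGC for 9 (23.7%), against 14% and 16.4%. The ETS core CGGAAGT was present for 4 (10.5%), against 7.2% and 13%, the ERR core AAGGTCA for 2 (5.26%), against 5.38% and 3.97%, and the SP box GGGCGG for 19 (50%), against 38.2% and 66.0%. AAGGTCA and the antioxidant core overlap in the Ndufs5 promoter. These counts describe letters only and no factor was measured at these genes.

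The YY1 matches are shown because most lie in 1 narrow stretch. Outside Ndufab1, each gene had a match on the gene's own strand between 24 and 46 bases after the annotated start, and capitals mark the 7 letters. The letters ATG inside the match are also those of a start codon, and whether they serve as one was not tested.
Ndufa3 (chr7:3617386-3617412, + strand): gccaagaacaAGATGGCcgggagtaag
Ndufc1 (chr3:51408916-51408942, - strand): ctgcggaacaAGATGGCgccgtccgta
Ndufs7 (chr10:80249464-80249490, + strand): gccgaggccaAGATGGCggcgctggcg
Ndufa9 (chr6:126849098-126849124, - strand): ttgtgggagaAGATGGCggccgccgtc
Ndufs6 (chr13:73328433-73328458, - strand): gtcaccggcaAGATGGCggcggtgct
Ndufs4 (chr13:114388045-114388068, - strand): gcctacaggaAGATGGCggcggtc
Ndufb8 (chr19:44555393-44555413, - strand): gagaaggtgaAGATGGCtgcc
The 8 genes with the YY1 letters had a median difference of -0.32, from -0.71 (Ndufa3) to 0.00081 (Ndufab1), and the 29 complex I genes without them one of -0.30, from -0.61 to -0.043. The ranges overlap over most of their length.

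The NRF1 matches are shown because the factor is named for its role at respiratory genes. One match per gene is given, with capitals marking its 7 letters.
Ndufa11 (chr17:56717694-56717720, + strand, from -58 to -52): tgcactgcgcGCATGCGcgcacgcctt
Ndufa6 (chr15:82354358-82354384, - strand, from -83 to -77): ccgcggtagaGCATGCGcattgcagag
Ndufa8 (chr2:36049330-36049356, - strand, from -8 to -2): cgctggagacGCATGCGcagatggtac
Ndufaf4 (chr4:24897962-24897988, + strand, from -111 to -105): agatgtctgcGCATGCGcctgtgcgga
Ndufaf5 (chr2:140170654-140170680, + strand, from 19 to 25): tcccgttggcGCATGCGcctaatagaa
Positions count from 1 at the annotated start and from -1 before it. The 5 genes with these letters had a median difference of -0.36, from -0.56 to -0.11, and the 32 without them one of -0.31. Genes with and without the NRF1 letters thus did not separate.

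The 250 bases before the start are given for the gene with the lowest difference among accessory subunits (Ndufa3), among assembly factors (Ndufaf3) and among those with NRF1 letters (Ndufa11), with every match of the 7 searched cores in capitals.
Ndufa3 (chr7:3617123-3617372, + strand), with YY1 letters far upstream and an SP box: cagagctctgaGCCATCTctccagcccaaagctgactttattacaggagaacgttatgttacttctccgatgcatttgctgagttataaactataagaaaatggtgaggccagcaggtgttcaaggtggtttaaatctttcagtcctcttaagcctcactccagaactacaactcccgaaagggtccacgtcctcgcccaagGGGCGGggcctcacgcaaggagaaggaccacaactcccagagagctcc
Ndufaf3 (chr9:108567437-108567686, - strand), with an SP box and an antioxidant core: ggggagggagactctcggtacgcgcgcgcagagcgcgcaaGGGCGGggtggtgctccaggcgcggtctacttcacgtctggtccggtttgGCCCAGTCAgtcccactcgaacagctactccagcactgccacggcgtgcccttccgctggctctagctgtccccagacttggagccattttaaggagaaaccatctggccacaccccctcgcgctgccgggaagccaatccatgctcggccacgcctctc
Ndufa11 (chr17:56717512-56717761, + strand), with CREB/ATF and NRF1 letters on both strands: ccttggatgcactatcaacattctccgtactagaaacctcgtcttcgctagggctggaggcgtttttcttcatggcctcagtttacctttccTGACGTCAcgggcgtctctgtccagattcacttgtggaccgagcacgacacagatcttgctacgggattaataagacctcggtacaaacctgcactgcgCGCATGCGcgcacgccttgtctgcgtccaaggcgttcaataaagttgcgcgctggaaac
No searched core is common to all 3 stretches. Ndufa3 and Ndufaf3 share an SP box, and the 3 genes had the lowest, the second lowest and the fourth lowest difference of the 41.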

How the data were processed

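Total RNA of 2 cultures was labelled with whole-transcript kits of Ambion and Affymetrix (per the labels' protocols) and measured on 1 array each. The deposited log2 values were made by the authors with RMA, per the submitters' processing notes (a method that as a rule corrects background, normalizes quantiles and summarises probes per set). No settings were given in the sources used here, and the log2 base was read from the values, which run from 2.73 to 14.5 with medians of 6.33 and 6.35. Of 35556 probe sets, the platform annotation named 1 gene for 21789, several for 1621 and none for 12146. RMA compresses differences of dim probe sets. Scanner files were not used here.

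Differences are celastrol minus DMSO. With 1 array per group no test was run and the number of arrays limits the precision. The gene lists, the 1.2-fold limit, the motifs and the alternatives were chosen by hand with earlier results of these data known. The rule for naming genes took all core and Ndufaf genes, the 6 accessory genes at either end, every member past 1.2-fold and those with several probe sets or near copies. The remaining accessory genes are also named. Alternatives were the mean of probe sets, quantile normalization, subtraction of the median or of a lowess trend (fraction 0.3), keeping Ndufa4 and Ndufa4l2 among the accessory genes, other detection limits and folds of 1.1 and 1.5. Genes were matched to GRCm38.p6 by Entrez identifier (21698 of 21789 probe sets). Quantile normalization and the subtraction of a median or of a lowess trend were tested on simulated data. Subtraction of the median of genes of like span and level was not. Tables were handled with pandas 2.3.3 and numpy 2.4.6 under Python 3.11.15, the lowess trend with statsmodels 0.14.6 and the plots with matplotlib 3.10.9.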

Additional observations from a re-analysis of the deposited data

How the results depend on the processing

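Under all alternatives run, medians of core (-0.27 to -0.17), accessory (-0.31 to -0.25), assembly (-0.25 to -0.21) and all complex I genes (-0.31 to -0.24) stayed negative and moved by less than 0.10. Genes lower by any amount numbered 37 to 40 of 41. Those lower by at least 1.2-fold numbered 18 to 24 across scaling and probe set choices, with 19 under lowess. By construction, they numbered 34 at a limit of 1.1-fold and 3 at 1.5-fold. Of 215 recalculated single differences, 205 moved by less than 0.10, the median disagreement between probe sets of 1 gene over 762 genes. The other 10 were Ndufc1 with its probe sets averaged (-0.42) and 9 genes under the adjustment for span and level, which was chosen after seeing the data. There Ndufa6 turned to 0.061, and Ndufaf1 turned to 0.047 (0.021 under lowess). In that setting the assembly minus accessory gap of medians shrank from 0.072 to 0.0037, while the core minus accessory gap grew from 0.044 to 0.077 and the membrane minus matrix arm gap from -0.037 to -0.093. No paired analysis was possible because each group holds 1 array. Signal limits Ndufa4l2, Ndufaf5 and Ndufaf6, which lay closest to the detection limit.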
